A study of Homo sapiens with 8 samples.

Results

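SCC25 is an established squamous cell carcinoma line from the tongue. The measurement described here is of its messenger RNAs after lasting depletion of the transcription factor ETS1. ETS1 was depleted with an integrated short hairpin RNA (shRNA), and the cells carrying it (shETS1) were compared with SCC25 cells carrying a non-silencing hairpin (shCON). All genes that passed a filter on low counts were taken, which gave 16481 of the 56638 gene symbols in the table. The hairpins were delivered by lentivirus, shETS1 is a single hairpin construct, and whether the lines are pools or clones, and how long they were grown before harvest, is not given in the sources used here. Both lines were grown in 10% serum with hydrocortisone at 400 ng/ml and selected with puromycin at 2 µg/ml. Each group had 2 libraries, which the labels number 1 and 2 without saying that they came from separate cultures, so that p-values measure the spread between these libraries, which may be technical. The 4 other libraries of the series compared short-term ETS1 loss by small interfering RNA (siRNA) with a control siRNA in the same line without puromycin, and they are used only to show where the long-term comparison differs.

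ETS1 is the founding member of a family of transcription factors that bind DNA through a winged helix domain with a GGAA core. It is phosphorylated by ERK kinases downstream of RAS, works together with AP-1 and other partners, and in epithelial tumours it is best known for driving proteases, matrix and angiogenic genes. Squamous epithelia divide in the basal layer and differentiate above it, where cells leave the cell cycle and build desmosomes, keratin filaments and a cornified envelope. The comparison asked what differs when ETS1 is lowered for long, and the results are ordered by pathway and gene family.

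The 4 libraries held 23834078 and 25148114 counts in shCON and 24408989 and 25953213 in shETS1. Levels are given as CPM, read counts relative to the TMM-scaled size of the library, always in the order shCON replicates 1 and 2 and then shETS1 replicates 1 and 2. They are not divided by gene length, so that levels of different genes cannot be compared. Differences are log2 fold changes of shETS1 over shCON with the standard error (SE) after ±, and a gene was called at an edgeR adjusted p under 0.1. Non-coding structural RNAs such as RN7SK, which lack a poly(A) tail, made up 5.61% and 6.63% of the shCON counts and 12.3% and 9.64% of the shETS1 counts, and mitochondrial genes took 0.508% to 0.82%. Leaving these RNAs and the mitochondrial genes out before scaling gave 9974 calls beside 9988, and 9906 of the calls kept their direction.

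ETS1 (chromosome 11, 128328656 to 128457453, minus strand, GRCh37) was at 82.3 and 72.1 CPM in shCON and 9.76 and 11.1 CPM in shETS1, a log2 fold change of -2.89 ± 0.10 (adjusted p 3.8e-13). Both shETS1 libraries were far below both shCON libraries and the level was 7.4-fold lower. The keratinocyte markers KRT5, KRT14, KRT6A, KRT17, DSG3, TP63, SFN and TRIM29 were all present and summed to 15700 and 15900 CPM in shCON and 26600 and 26200 CPM in shETS1. Within this sum TP63 and SFN were called lower, with -0.4 (adjusted p 0.0013) and -0.17 (adjusted p 0.069), and the other markers were called higher. Leukocyte markers summed to at most 4.81 CPM in any library. Of the endothelial markers, PECAM1 and CDH5 were at 0 in every library.

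The difference between the lines was broad. Of the 16481 genes tested, 9988 were called, which is 60.6%, with 4900 higher (29.7%) and 5088 lower (30.9%) in shETS1. At least 2-fold changes were fewer, with 1116 genes higher (6.77%) and 1282 lower (7.78%). The median log2 fold change over all genes was 0.00066, with quartiles at -0.42 and 0.38. Scaling by library size alone moved that median to -0.12 and the share of higher calls among all calls from 49.1% to 36.6%. In 12630 genes (76.6%) the 2 groups did not overlap. Against this background a count of calls by itself says little about a gene family, and the direction and size of the change within each family carry the description.

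Of the 2438 genes in 69 lists of pathways and families that were tested, 1822 were called, 798 higher and 1024 lower. Families of cell division moved down almost as a whole. Nucleotide synthesis, amino acid synthesis, interferon effectors and the ERK feedback genes were lower as well, while most ribosomal proteins, keratins, desmosomal proteins, collagens, complement and zinc finger genes were higher.

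**Figure D1:**
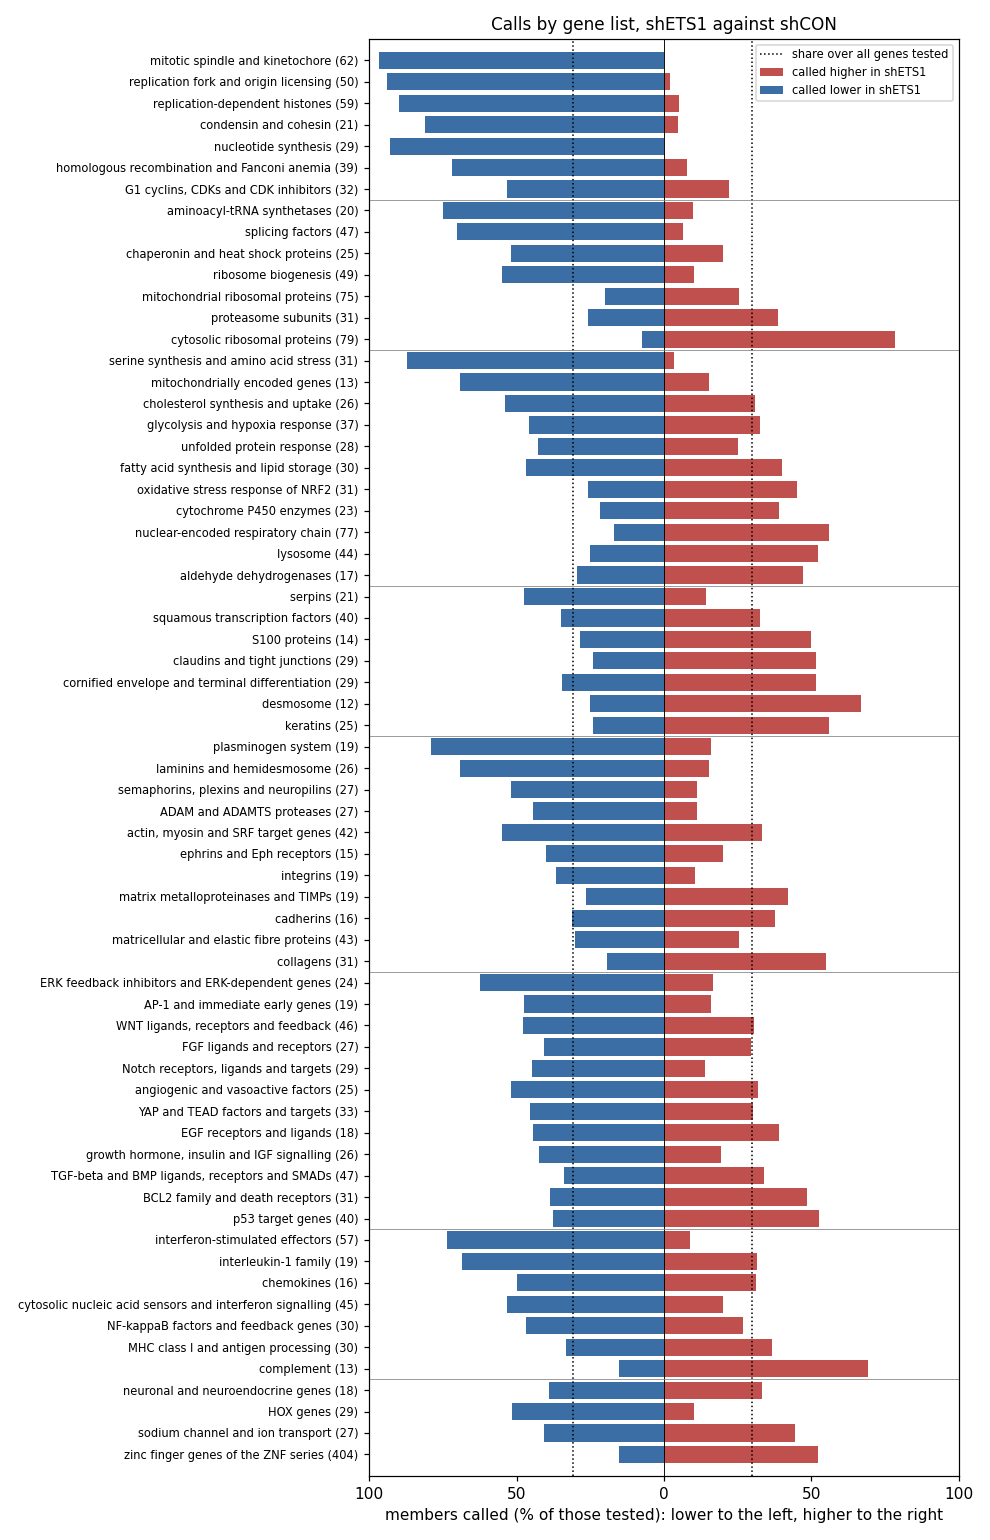
Share of the tested members of each list (percent, x axis) called higher in shETS1 (bars to the right) and called lower (bars to the left), with the number tested in brackets and lists grouped by theme. Dotted lines mark the shares over all 16481 genes, 29.7% higher and 30.9% lower; the mitotic and replication lists lie furthest to the left with over 90% of members lower.

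The promoters of cell division genes carry sequence elements that are read by cell cycle repressors and activators. E2F factors bind sites of the kind TTTCCCGC or TTTGGCGC in promoters of replication genes, and the CHR element TTTGAA, often a short distance downstream of a CCAAT box, marks promoters that are silent in resting cells and open in G2 and mitosis. Windows of 160 bases, from 130 before to 30 after the RefSeq start (GRCh38.p14), are shown 5′ to 3′ on the strand of the gene for members of these families that fell and hold the element, with the matched letters in capitals. The first pair are CDT1 (chr16:88803659-88803818, plus strand) and CLSPN (chr1:35769949-35770108, minus strand), each with an E2F match on the opposite strand. PLK1 (chr16:23678759-23678918, plus strand) and ESPL1 (chr12:53268169-53268328, plus strand) hold a CHR and a CCAAT box, and HIST1H4I, now named H4C9 (chr6:27139152-27139311, plus strand), holds a CCAAT box.
CDT1: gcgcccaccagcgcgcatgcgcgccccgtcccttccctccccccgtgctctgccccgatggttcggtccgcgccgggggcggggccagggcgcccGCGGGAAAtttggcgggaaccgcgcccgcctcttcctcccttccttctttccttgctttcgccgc
CLSPN: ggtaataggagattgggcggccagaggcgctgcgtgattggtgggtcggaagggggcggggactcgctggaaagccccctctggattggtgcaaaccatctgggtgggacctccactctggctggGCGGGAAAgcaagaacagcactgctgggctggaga
PLK1: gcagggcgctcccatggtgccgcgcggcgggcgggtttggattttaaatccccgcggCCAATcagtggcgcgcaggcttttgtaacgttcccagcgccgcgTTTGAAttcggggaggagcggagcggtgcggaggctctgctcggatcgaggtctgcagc
ESPL1: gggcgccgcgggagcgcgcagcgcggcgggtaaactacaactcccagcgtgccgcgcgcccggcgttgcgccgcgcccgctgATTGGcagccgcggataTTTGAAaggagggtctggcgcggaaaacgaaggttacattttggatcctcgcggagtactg
HIST1H4I: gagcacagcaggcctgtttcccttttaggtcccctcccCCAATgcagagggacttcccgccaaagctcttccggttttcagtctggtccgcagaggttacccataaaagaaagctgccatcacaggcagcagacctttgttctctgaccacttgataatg
The match begins 35 bases before the start in CDT1 and 5 bases before it in CLSPN. In PLK1 the CCAAT box begins 73 and the CHR 29 bases before the start, and in ESPL1 48 and 31 bases before it. The CCAAT box of HIST1H4I begins 92 bases before the start.

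Genes of DNA replication were lower almost throughout. Of 50 tested genes of origin licensing and the replication fork, 47 were called lower and 1 higher, with a median log2 fold change of -0.78. TIMELESS, which holds the fork together with TIPIN, had the largest fall, from 57.2 and 56.3 to 16.4 and 17.4 CPM (-1.75 ± 0.09). CDT1, which loads the MCM helicase onto origins, fell from 39.3 and 37.2 to 13.2 and 15.7 CPM (-1.4 ± 0.10). CLSPN, the adaptor of the replication checkpoint, fell from 68.7 and 63.4 to 25.8 and 26.4 CPM (-1.34 ± 0.08). In each of these genes both shETS1 libraries lay below both shCON libraries. The 6 subunits of the MCM helicase fell unequally, from -0.41 for MCM3 and -0.78 for MCM7 to -1.26 for MCM4, with MCM2 at -1.02, MCM5 at -1.09 and MCM6 at -1.24. PCNA, the sliding clamp, fell from 265 and 296 to 192 and 187 CPM (-0.56 ± 0.08). ORC4, a subunit of the origin recognition complex, was the 1 member that rose, from 42.9 and 40.2 to 59.6 and 58.8 CPM (0.51 ± 0.08).

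Enzymes that make the building blocks of DNA were lower as well. Of 29 tested genes of nucleotide synthesis 27 were called lower and 0 higher, with a median of -0.66. RRM2, the small subunit of ribonucleotide reductase that is made in S phase, fell from 161 and 152 to 41.3 and 48.96 CPM (-1.79 ± 0.09), whereas its large subunit RRM1 fell only from 225 and 243 to 195 and 193 CPM (-0.27 ± 0.07). TYMS, which makes thymidylate, changed by -1.62 ± 0.12 and TK1, the thymidine kinase of dividing cells, by -1.14 ± 0.07. CAD, which starts pyrimidine synthesis, was at 92.3 and 70.7 CPM in shCON and 33.7 and 41.7 CPM in shETS1 (-1.11 ± 0.12).

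Mitosis showed the most uniform fall. Of 62 tested genes of the spindle and kinetochore, 60 were called lower and 0 higher, with a median of -0.86. PLK1, the kinase that drives entry into and exit from mitosis, fell from 71.1 and 65.99 to 12.2 and 15.02 CPM (-2.33 ± 0.10), and its exons overlap ERN2 on the other strand, so that some reads may belong to that gene. ESPL1, the protease that cuts cohesin at anaphase, fell from 34.3 and 31.6 to 12.03 and 13.4 CPM (-1.37 ± 0.10). CDK1, its cyclin CCNB1 and the kinase AURKA changed by -0.89 ± 0.08, -0.79 ± 0.07 and -0.81 ± 0.07, while AURKB of the chromosomal passenger complex changed by -1.36 ± 0.08. For each of these genes the 2 shETS1 libraries were below the 2 shCON libraries. The condensin and cohesin list had 17 of 21 tested genes lower and 1 higher (median -0.67). NCAPD2, a condensin subunit, fell from 212 and 191 to 67.5 and 79.9 CPM (-1.45 ± 0.09), and it overlaps MRPL51 on the other strand. The cohesin ring subunit SMC1A changed by -1.38 ± 0.09 and RAD21, the subunit cut at anaphase, by -0.67 ± 0.08.

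Repair by homologous recombination and the Fanconi anemia pathway had 28 of 39 tested genes lower and 3 higher, with a median of -0.64. BRCA2, which acts at broken DNA ends, fell from 93.4 and 89.3 to 29.8 and 31.9 CPM (-1.57 ± 0.08). BRCA1 changed by -1.11 ± 0.08 and FANCD2 by -1.01 ± 0.08. The 3 higher members changed little in size, FANCM with 0.18 ± 0.08, FANCF with 0.25 ± 0.12 and FANCE with 0.39 ± 0.08.

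Replication-dependent histone genes are transcribed in S phase and their mRNAs end in a stem-loop rather than a poly(A) tail. Of 76 histone symbols listed, 59 passed the filter, and of these 53 were called lower and 3 higher, with a median of -0.78. HIST1H4I fell from 69.2 and 86.7 to 31.5 and 32.3 CPM (-1.29 ± 0.10). HIST1H3B, a histone H3 gene of the same cluster, fell from 259 and 289 to 141 and 131 CPM (-1.01 ± 0.08). The 3 higher members were HIST2H2AA3, at 1.75 and 1.58 CPM in shCON and 3.96 and 3.17 CPM in shETS1 (1.09 ± 0.22), HIST1H2BK with 0.25 ± 0.08 and HIST1H2AC with 0.24 ± 0.08. HIST1H1C and HIST2H2BE fell with -0.27 ± 0.08 and -0.62 ± 0.08. The share of structural RNAs, which have no tail either, also differed between the lines, and the part of tail selection in the histone values was not tested. Histone copies are nearly identical in sequence, and how reads with several matches were counted is not stated, so that single histone genes are uncertain.

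Regulators of G1 and of the cell cycle genes did not move as a block, with 17 of 32 tested lower and 7 higher. CCND2, a D-type cyclin, fell from 13.8 and 13.8 to 1.61 and 1.59 CPM (-3.11 ± 0.16) and overlaps the antisense transcript CCND2-AS1, whereas CCND1 was at 644 and 611 CPM in shCON and 561 and 597 CPM in shETS1 with an adjusted p of 0.23. FOXM1, the activator of G2 and M phase genes, fell from 60.9 and 53.5 to 12.2 and 16.3 CPM (-2.0 ± 0.12), and MYBL2, its partner on CHR promoters, changed by -1.82 ± 0.08. E2F1 changed by -1.12 ± 0.11 and the repressor E2F7 by -2.28 ± 0.12. Among the inhibitors, CDKN2B, which blocks CDK4 and CDK6, rose from 43.5 and 38.9 to 145 and 151 CPM (1.84 ± 0.08), CDKN1C changed by 1.95 ± 0.16 and CDKN1A by 0.33 ± 0.09.

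The promoter elements were counted in the families as a description. The E2F letters lay in 36.4% of the replication promoters, 16 of 44, against 2.31% of the 27305 RefSeq promoters of the same 300 bases, and CHR letters in 62.7% of mitotic promoters, 32 of 51, against 15.4%. Both CHR and CCAAT were present in 51% of the mitotic promoters against 6.08% overall. A CCAAT box lay in 85.4% of histone promoters, 41 of 48, against 35.7%. The median log2 fold change was -0.90 in the 16 replication genes with an E2F match and -0.76 in the 28 without, and -0.89 in the 32 mitotic genes with a CHR and -0.83 in the 19 without. In histone genes it was -0.85 in the 41 with a CCAAT box and -0.36 in the 7 without. The ETS letters CCGGAAGT lay in 8.38% of the promoters of genes tested, in 9.53% of those called higher and in 7.15% of those called lower.

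**Figure D2:**
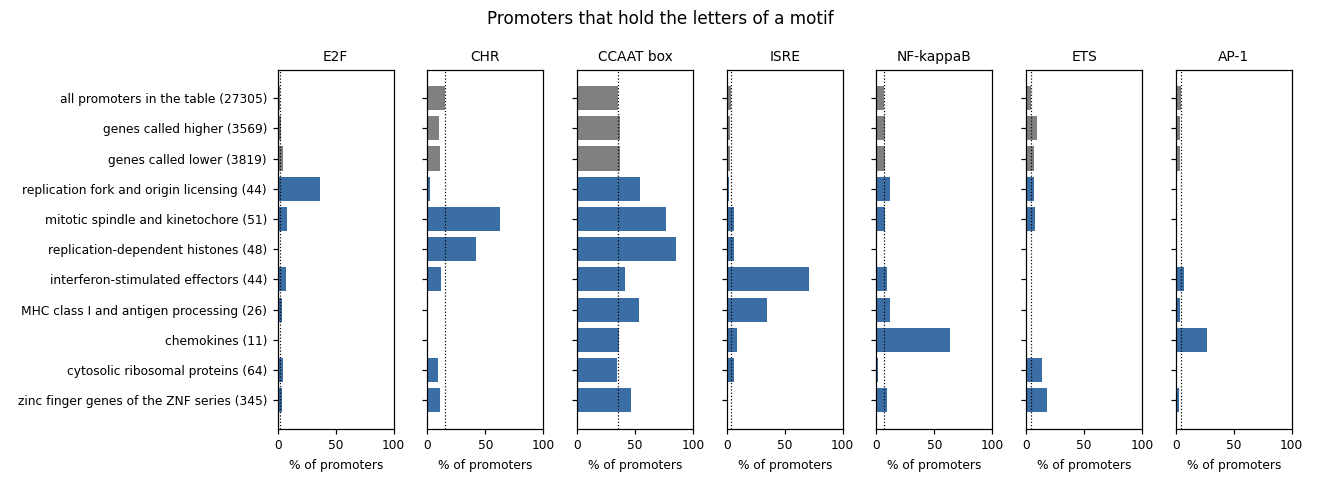
Share of promoters (percent, x axis; 300 bases per promoter, both strands) that hold each motif, 1 panel per motif, with a dotted line at the share of all 27305 promoters. Grey bars are sets of all promoters or genes and blue bars are gene lists; E2F letters reach 36.4% in replication, CHR 62.7% in mitosis and the ISRE 70.5% in interferon effectors.

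Protein synthesis split into parts that went opposite ways. Of 79 cytosolic ribosomal proteins, 62 were called higher and 6 lower, with a median of 0.43, and together they took 4.96% and 5.28% of the counts in shCON and 6.45% and 6.11% in shETS1. RPL31, a protein of the large subunit, rose from 454 and 513 to 896 and 772 CPM (0.79 ± 0.09), RPS12 changed by 0.77 ± 0.09 and RPS29 by 0.74 ± 0.09. RPS16, a protein of the small subunit, went far in the other direction, from 217 and 214 to 24.4 and 29.9 CPM (-2.99 ± 0.09, adjusted p 9.4e-14). The shETS1 level was 7.93-fold lower, and after siRNA it changed by 0.22 ± 0.13 (adjusted p 0.42). RPLP1 with -1.0 ± 0.08 and RPL28 with -0.61 ± 0.09 were also lower. Ribosomal protein genes have many processed copies in the genome, and such copies can share reads with them.

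Other parts of the translation apparatus were lower. Of 20 aminoacyl-tRNA synthetases, which charge tRNAs, 15 were called lower and 2 higher (median -0.37). AARS, for alanine, fell from 332 and 319 to 114 and 128 CPM (-1.43 ± 0.08) and overlaps DDX19B on the other strand. YARS, for tyrosine, changed by -1.3 ± 0.08 and WARS, for tryptophan, by -1.09 ± 0.07. Factors that build ribosomes had 27 of 49 tested lower and 5 higher (median -0.16), led by nucleolin, NCL, which fell from 749 and 745 to 315 and 379 CPM (-1.11 ± 0.09) and hosts small nucleolar RNAs on its strand. Mitochondrial ribosomal proteins had 19 of 75 higher and 15 lower, 25.3% and 20% beside the 29.7% and 30.9% of all genes. MRPL12 fell from 18.5 and 17.3 to 4.096 and 5.39 CPM (-1.91 ± 0.14). Splicing factors had 33 of 47 tested lower and 3 higher, with a median of -0.35. HNRNPA2B1, which binds nascent transcripts, fell from 619 and 616 to 168 and 213 CPM (-1.7 ± 0.10) and overlaps CBX3, while SF3B1 of the U2 particle rose from 469 and 498 to 678 and 658 CPM (0.47 ± 0.08). Of the chaperones, 13 of 25 were lower and 5 higher. HSP90AA1, the inducible HSP90, fell from 2056 and 1953 to 744 and 921 CPM (-1.27 ± 0.10), and it overlaps WDR20. Proteasome subunits went both ways, 12 of 31 higher and 8 lower, 38.7% and 25.8%, with PSMC5 lower by -1.09 and PSMA6 higher by 0.65.

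Serine synthesis and the genes of amino acid stress were among the most strongly lowered. This pathway makes serine from a glycolytic intermediate and feeds nucleotide synthesis, and the transcription factor ATF4 switches it on when amino acids are scarce. Of 31 tested genes 27 were called lower and 1 higher, with a median of -0.72. PHGDH, the first enzyme of the pathway, fell from 63.6 and 66.3 to 8.06 and 7.45 CPM (-3.07 ± 0.10). PSAT1, the second, fell from 120.0 and 124 to 11.3 and 16.5 CPM (-3.12 ± 0.12). ASNS, which makes asparagine, fell from 78.1 and 81.2 to 13.6 and 15.9 CPM (-2.43 ± 0.09). In all 3 both shETS1 libraries were far below both shCON libraries. TRIB3, an inhibitor that ATF4 induces, changed by -2.24 ± 0.10 and the amino acid transporter SLC7A5 by -1.05 ± 0.09. ATF4 mRNA itself was at 209 and 219 CPM in shCON and 193 and 181 CPM in shETS1 (-0.19 ± 0.07), and SLC38A2, a glutamine transporter, rose with 0.71 ± 0.09.

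**Figure D3:**
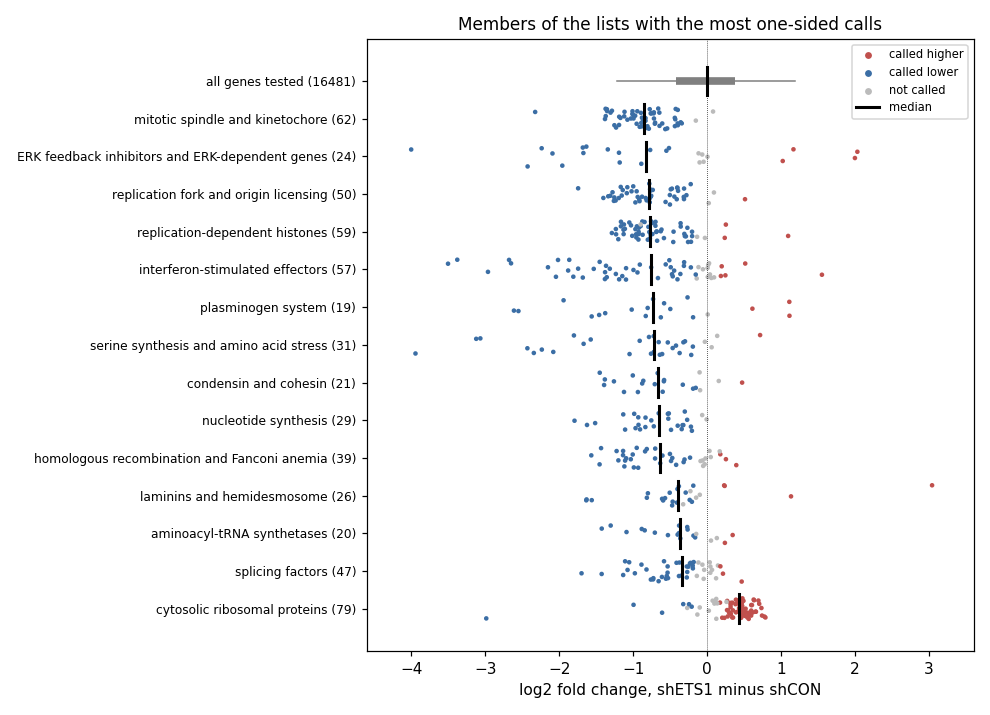
Log2 fold change of shETS1 over shCON (x axis) for every tested member of 14 lists and for all genes, 1 dot per gene, red where called higher, blue where called lower and grey where not called, with the median as a black bar. Nearly all mitotic and replication dots are left of 0. Most ribosomal protein dots are right of 0, with 6 of 79 called lower and RPS16 near -3.

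Energy metabolism was less uniform. Nuclear-encoded subunits of the respiratory chain had 43 of 77 tested higher and 13 lower, with a median of 0.18. That median was 0.06 with scaling by library size alone. COX7C, a small subunit of cytochrome oxidase, rose with 0.87 ± 0.08, and SDHC, an anchor of succinate dehydrogenase, fell from 60.9 and 59.5 to 22.8 and 33.2 CPM (-1.1 ± 0.12). Genes encoded in the mitochondrion itself had 9 of 13 lower and 2 higher (median -0.39, but -0.20 without shETS1 replicate 1 and -0.69 without shETS1 replicate 2). MT-CO3 changed by -0.74 ± 0.10, and MT-ND6, the gene on the other strand of the mitochondrial genome, by 0.53 ± 0.10. The 2 shETS1 libraries also differed from each other in the mitochondrial share, with 0.508% and 0.714%. Glycolysis and hypoxia genes went both ways, with 17 of 37 lower and 12 higher. VEGFA, the main angiogenic ligand, fell from 146 and 143 to 24.5 and 23.5 CPM (-2.59 ± 0.08), while ADM, which encodes the vasodilator adrenomedullin, rose from 34.7 and 35.04 to 249.8 and 233 CPM (2.79 ± 0.08). Both are textbook targets of hypoxia, and SLC2A1 and BNIP3, which are targets too, changed by 0.29 ± 0.07 and 0.39 ± 0.09.

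Lipid genes went both ways. Of 26 genes of cholesterol synthesis and uptake 14 were lower and 8 higher. Fatty acid and lipid storage genes had 14 of 30 lower and 12 higher. The desaturase SCD changed by -1.69 ± 0.09 and fatty acid synthase, FASN, by -1.03 ± 0.10. CD36, a fatty acid receptor, rose from 63.1 and 76.1 to 382 and 369 CPM (2.43 ± 0.09), LPIN1 changed by 2.86 ± 0.09, and FABP4, a fatty acid carrier of fat cells, rose from 0.438 and 0.617 to 13.4 and 10.5 CPM (4.49 ± 0.23). Lysosomal genes had 23 of 44 higher and 11 lower (median 0.27), with CTSF, a cathepsin, at 3.42 and 4.39 CPM in shCON and 24.3 and 19.5 CPM in shETS1 (2.48 ± 0.15) and the sphingolipid activator PSAP at 0.93 ± 0.08.

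Among detoxifying enzymes the members of single families diverged. Of 17 aldehyde dehydrogenases, 8 were higher and 5 lower. ALDH1A3, which makes retinoic acid, fell from 276 and 279 to 36.9 and 36.1 CPM (-2.93 ± 0.08) and overlaps an antisense transcript. ALDH1A1, which does the same reaction, rose from 5.05 and 6.98 to 39.2 and 40.8 CPM (2.73 ± 0.12). ALDH1A2, a retinal dehydrogenase as well, rose with 2.11 ± 0.31 at a low level. ALDH1L2, of mitochondrial folate metabolism, changed by -2.86 ± 0.12. Cytochrome P450 genes had 9 of 23 higher and 5 lower, 39.1% and 21.7% beside the 29.7% and 30.9% of all genes. CYP39A1, an oxysterol hydroxylase, rose from 5.41 and 4.86 to 22.4 and 21.9 CPM (2.11 ± 0.12). Targets of the oxidative stress factor NRF2 had 14 of 31 higher and 8 lower, and SLC7A11, the cystine transporter, fell from 73.4 and 70.5 to 21.9 and 26.3 CPM (-1.57 ± 0.09), with an antisense transcript over it. The unfolded protein response had 12 of 28 lower and 7 higher, and HSPA5, the chaperone BiP, fell from 269 and 231 to 89.97 and 113 CPM (-1.3 ± 0.10).

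Structural genes of squamous epithelium were more often higher than lower. Keratins, which form the intermediate filaments, had 14 of 25 tested higher and 6 lower, with a median of 0.65, and their share of all counts went from 1.56% and 1.55% to 2.47% and 2.48%. KRT16, induced in activated keratinocytes, rose from 226 and 236 to 1509 and 1281 CPM (2.59 ± 0.09). KRT13, of the suprabasal oral mucosa, rose from 54.4 and 61.4 to 305 and 283 CPM (2.34 ± 0.08). KRT15 and KRT19 changed by 1.39 ± 0.09 and 1.59 ± 0.10. The simple epithelial keratin KRT18 fell with -0.65 ± 0.07. Several keratins of this series are close paralogues, so that reads may be shared among them.

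Desmosomes, the junctions that anchor keratin filaments, had 8 of 12 genes higher and 3 lower, with a median of 0.52. DSG1, the desmoglein of upper layers, rose from 4.53 and 3.82 to 32.5 and 32.5 CPM (2.96 ± 0.12), with the antisense transcript DSG1-AS1 over it. DSG3, the desmoglein of lower layers, rose from 692 and 740.0 to 1977 and 1885 CPM (1.43 ± 0.09). PERP changed by 1.33 ± 0.09. The 3 lower members were JUP with -0.78 ± 0.08, DSG2 with -0.47 ± 0.08 and PKP3 with -0.24 ± 0.07. Claudins and tight junction genes had 15 of 29 higher and 7 lower, and CLDN1 rose from 159 and 156 to 541 and 605 CPM (1.86 ± 0.08).

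The cornified envelope list had 29 of 52 symbols tested, 15 higher and 10 lower, and the sign of its median depended on the filter (0.35, and -0.07 without a filter on low counts). ABCA12, the lipid transporter of the skin barrier, rose from 2.58 and 2.54 to 12.6 and 11.3 CPM (2.22 ± 0.15). The protease TMPRSS11E changed by 1.93 ± 0.10 and the crosslinking enzyme TGM1 by 0.82 ± 0.09, while OVOL1 and KLF4, transcription factors of differentiation, changed by -1.0 ± 0.12 and -0.68 ± 0.08. Squamous transcription factors had 13 of 40 higher and 14 lower, 32.5% and 35%, near the 29.7% and 30.9% of all genes. MAF, which acts in late differentiation, rose from 16.98 and 17.3 to 55.8 and 56.9 CPM (1.72 ± 0.09), and SOX9 and GATA6 changed by -1.44 ± 0.15 and -1.55 ± 0.14. Of 7 kallikrein-related peptidases 5 were lower and 1 higher, with KLK10 at 8.59 and 8.67 CPM in shCON and 3.53 and 4.36 CPM in shETS1 (-1.12 ± 0.15). Secreted defence proteins went opposite ways, since SLPI, a protease inhibitor, changed by 1.84 ± 0.08 and LCN2, an iron-binding protein, fell from 10.9 and 10.6 to 3.09 and 2.66 CPM (-1.91 ± 0.15). The S100 genes had 7 of 14 higher and 4 lower, S100A11 falling from 284 and 288 to 113 and 149.9 CPM (-1.12 ± 0.10).

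**Figure D4:**
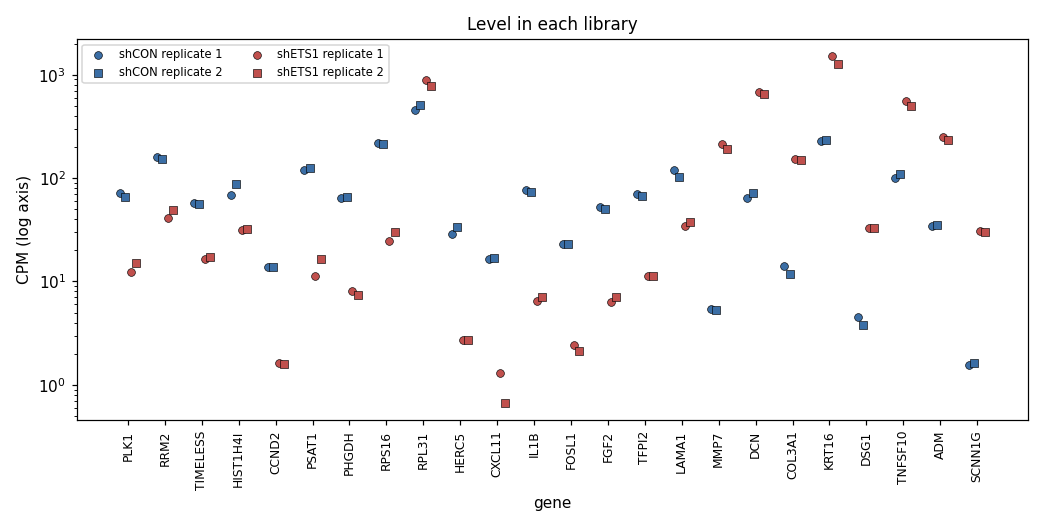
CPM (y axis, log scale) of 24 named genes in each of the 4 libraries, 1 dot per library, shCON and shETS1 side by side. In every gene the 2 shCON dots and the 2 shETS1 dots form separate pairs, for example PSAT1 at 120 and 124 against 11.3 and 16.5 CPM and KRT16 at 226 and 236 against 1509 and 1281 CPM. Most of these genes were named by a rule that asks for no overlap. Over all 16481 genes 76.6% did not overlap.

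Extracellular matrix genes went both ways. Collagens had 17 of 31 tested higher and 6 lower, with a median of 0.42. COL3A1, a fibrillar collagen, rose from 13.96 and 11.9 to 153 and 148 CPM (3.54 ± 0.09), and COL1A2, COL5A2 and COL8A1 changed by 2.0 ± 0.12, 1.41 ± 0.08 and 2.27 ± 0.08. COL5A1, another fibrillar collagen, changed by -0.07 and was not called. Of the basement membrane collagens, COL4A1 and COL4A2 fell with -0.92 ± 0.08 and -0.8 ± 0.09, while COL4A5, COL4A6 and COL18A1 rose with 0.8 ± 0.08, 0.32 ± 0.08 and 1.06 ± 0.14. DCN (decorin) and LUM (lumican) are small proteoglycans that bind collagen fibrils. DCN was at 63.9 and 71.7 CPM in shCON and 678 and 645 CPM in shETS1 (3.29 ± 0.09) and LUM at 159.9 and 183 CPM in shCON and 1357 and 1289 CPM in shETS1 (2.95 ± 0.09). COL1A1, COL1A2, DCN, LUM and PDGFRA also mark fibroblasts, and the 7 fibroblast markers summed to 241 and 269 CPM in shCON and to 2080 and 1990 CPM in shETS1. All 5 rose, but PDGFRB and THY1 did not pass the filter and were at most at 0.392 and 0.159 CPM. The part of other cells in these rises was not tested. In a bulk sample more cells of a type and more RNA per cell cannot be told apart.

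Genes of the laminin and hemidesmosome list were more often lower than higher. They had 18 of 26 lower and 4 higher, with a median of -0.39 that was -0.18 with offsets for length and GC content. LAMA1 fell from 120.5 and 102 to 34.4 and 37.3 CPM (-1.64 ± 0.09), and LAMA3 and LAMB3, which are chains of the main epidermal laminin, changed by -0.47 ± 0.08 and -0.61 ± 0.09. DST, which ties keratin to the hemidesmosome, rose with 1.13 ± 0.09. Of 19 integrins 7 were lower and 2 higher, 36.8% and 10.5% beside the 30.9% and 29.7% of all genes. Their median was -0.06. ITGA2, a collagen receptor subunit, fell from 98.8 and 95.3 to 29.6 and 32.3 CPM (-1.65 ± 0.08).

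The plasminogen and clotting genes were lowered nearly together, with 15 of 19 lower and 3 higher and a median of -0.73. TFPI2, an inhibitor of plasmin and tissue factor, fell from 69.7 and 67.3 to 11.2 and 11.2 CPM (-2.61 ± 0.09) and overlaps GNGT1. The activator PLAU, its receptor PLAUR and tissue factor, F3, changed by -0.83 ± 0.09, -1.38 ± 0.12 and -1.02 ± 0.08. TFPI rose with 1.11 ± 0.07. Matrix metalloproteinases and their TIMP inhibitors had 8 of 19 higher and 5 lower. MMP7, an epithelial protease, rose from 5.45 and 5.28 to 213 and 191 CPM (5.24 ± 0.10). MMP13, a collagenase, rose from 129 and 137 to 1096 and 1088 CPM (3.03 ± 0.08). MMP2 fell with -1.41 ± 0.09 and TIMP1 with -1.5 ± 0.09. Of 27 ADAM and ADAMTS proteases 12 were lower and 3 higher, and ADAM19 fell from 19.2 and 16.5 to 1.96 and 3.09 CPM (-2.81 ± 0.17), with CYFIP2 on the other strand.

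Adhesion and guidance receptors included several of the largest changes. SEMA3A, a repulsive guidance ligand, fell from 9.23 and 9.67 to 0.784 and 0.793 CPM (-3.58 ± 0.20), and the neuropilins NRP1 and NRP2 changed by -1.06 ± 0.08 and -2.0 ± 0.14. SEMA6D rose with 3.12 ± 0.10. The whole list of semaphorins, plexins and neuropilins had 14 of 27 lower and 3 higher (median -0.34). Among cadherins, the mesenchymal CDH11 fell from 10.7 and 9.67 to 0.784 and 0.991 CPM (-3.51 ± 0.20), and CDH16, a cadherin known from kidney, rose from 8.35 and 9.37 to 65.6 and 61.8 CPM (2.84 ± 0.10). Of 15 ephrins and their receptors 6 were lower and 3 higher, with EPHA4 rising from 23.8 and 24.7 to 103 and 90.3 CPM (2.0 ± 0.09). ROBO1, the receptor of SLIT ligands, rose from 0.716 and 0.655 to 9.11 and 10.7 CPM (3.84 ± 0.21). PODXL, a sialomucin of the apical surface, fell from 40.1 and 34.8 to 3.31 and 3.05 CPM (-3.56 ± 0.13), as did LPXN, a paxillin relative of focal adhesions, from 79.99 and 80.3 to 7.71 and 5.79 CPM (-3.58 ± 0.11). Genes of actin, myosin and SRF had 23 of 42 lower and 14 higher (median -0.30). ACTB changed by -0.77 ± 0.09, while MYLK, the myosin light chain kinase, rose from 62.9 and 61.8 to 229 and 222 CPM (1.85 ± 0.07), with antisense transcripts over its exons, and TAGLN changed by 1.4 ± 0.11.

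Genes induced by ERK signalling were mostly lower. Among them are inhibitors of the pathway itself, which form its negative feedback. Of 24 tested genes 15 were called lower and 4 higher, with a median of -0.83. ETV4, an ETS factor under ERK control, fell from 30.8 and 29.2 to 5.88 and 5.27 CPM (-2.43 ± 0.12) and overlaps DHX8. DUSP6, the phosphatase of ERK, changed by -1.63 ± 0.11, SPRY4 by -1.96 ± 0.18 and PHLDA1 by -2.24 ± 0.09. The phosphatase DUSP1, which is induced by stress and glucocorticoids, was among the 4 that rose, with 2.03 ± 0.08. AP-1 and immediate early genes had 9 of 19 lower and 3 higher. FOSL1, the AP-1 subunit most tied to ERK, fell from 23.03 and 22.97 to 2.44 and 2.14 CPM (-3.33 ± 0.14), EGR1 changed by -2.01 ± 0.18, and the subunits FOSL2 and JUNB rose with 0.88 ± 0.08 and 0.43 ± 0.09. Upstream, EGFR was at 1027 and 807 CPM in shCON and 777 and 997 CPM in shETS1 with an adjusted p of 0.75. The list of EGF receptors and ligands had 8 of 18 lower and 7 higher. Among the ligands, HBEGF fell from 33.2 and 28.9 to 6.36 and 4.96 CPM (-2.46 ± 0.13), AREG with -2.35 ± 0.23, EREG with -1.75 ± 0.13 and TGFA with -1.21 ± 0.08, while EGF and BTC rose with 0.75 ± 0.19 and 0.7 ± 0.34.

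Growth factor genes changed by member rather than by family. FGF2 fell from 52.4 and 49.7 to 6.32 and 7.02 CPM (-2.93 ± 0.10) and shares exonic bases with NUDT6 on the other strand. INHBA, which makes activin A, fell from 82.6 and 73.6 to 16.1 and 18.4 CPM (-2.18 ± 0.09), with an antisense transcript, and so did its antagonist FST, from 47.8 and 41.7 to 9.93 and 11.1 CPM (-2.09 ± 0.10). TGFBR3, the betaglycan coreceptor, rose from 15.1 and 15.2 to 47.9 and 51.1 CPM (1.71 ± 0.09), as did ID4, a target of BMP signals, from 15.6 and 17.9 to 49.5 and 43.5 CPM (1.47 ± 0.10). The list of TGF-beta and BMP genes had 16 of 47 higher and 16 lower, 34% each way, near the 29.7% and 30.9% of all genes. GHR, the growth hormone receptor, rose from 1.91 and 1.97 to 30.4 and 34.6 CPM (4.07 ± 0.14). The WNT list had 22 of 46 lower and 14 higher (median -0.35), with the ligand WNT7A falling from 8.59 and 9.17 to 2.48 and 2.54 CPM (-1.82 ± 0.16). Notch genes had 13 of 29 lower and 4 higher, and HES2 rose from 35.3 and 36.9 to 93.4 and 90.9 CPM (1.35 ± 0.08). Of 33 YAP and TEAD genes 15 were lower and 10 higher, 45.5% and 30.3%. NT5E, the ectonucleotidase CD73, fell from 146 and 142 to 48.5 and 52.6 CPM (-1.51 ± 0.08).

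Among vasoactive and angiogenic factors was the largest rise of those called genes that averaged 5 CPM or more and had more than 3 counts in each shCON library. NTS (chromosome 12, 86268073 to 86276770, plus strand, GRCh37), the peptide neurotensin, rose from 0.597 and 0.694 to 40.04 and 40.6 CPM (5.95 ± 0.15), from 15 and 18 counts to 919 and 1024. ANGPT1, a ligand that steadies vessels, rose from 21.7 and 23.9 to 192 and 178 CPM (3.02 ± 0.08) and EDN1, the vasoconstrictor endothelin, from 7.995 and 8.71 to 64.7 and 54.6 CPM (2.83 ± 0.11). KDR, the VEGF receptor known from endothelium, rose from 1.83 and 1.696 to 23.96 and 23.8 CPM (3.76 ± 0.14) while PECAM1 and CDH5 stayed at 0. PTGS2, which makes prostaglandins, fell from 81.7 and 69.5 to 14.03 and 13.6 CPM (-2.45 ± 0.10). The list as a whole had 13 of 25 lower and 8 higher. SCNN1G, a subunit of the epithelial sodium channel, rose from 1.55 and 1.62 to 30.9 and 29.9 CPM (4.26 ± 0.14), with transcripts on the other strand over its exons, and SCNN1A, another subunit, from 16.5 and 16.3 to 31.3 and 30.7 CPM (0.92 ± 0.09). AQP3, a water and glycerol channel, changed by 1.32 ± 0.08, and ANO1, a chloride channel, fell from 106 and 88.03 to 14.2 and 20.6 CPM (-2.47 ± 0.13). Of the 27 ion transport genes 12 were higher and 11 lower. C10orf99, which encodes a small secreted peptide of barrier epithelia, rose from 1.67 and 1.43 to 27.2 and 24.3 CPM (4.05 ± 0.15).

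Interferon-stimulated genes are switched on by STAT and IRF factors at the interferon-stimulated response element (ISRE, searched as the GAAA pair with any 2 bases between, on either strand), and many chemokine genes by NF-kappaB (searched as GGG followed after any 3 bases by TTCC). The windows below are of the same 160 bases around the RefSeq start and show the ISRE and NF-kappaB matches of the strongest falls with an element in these families. They belong to HERC5 (chr4:88456989-88457148, plus strand), GBP4 (chr1:89198913-89199072, minus strand) and CXCL11 (chr4:76036041-76036200, minus strand).
HERC5: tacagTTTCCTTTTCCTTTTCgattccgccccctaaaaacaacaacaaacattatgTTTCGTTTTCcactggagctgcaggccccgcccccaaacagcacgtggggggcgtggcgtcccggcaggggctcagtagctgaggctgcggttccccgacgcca
GBP4: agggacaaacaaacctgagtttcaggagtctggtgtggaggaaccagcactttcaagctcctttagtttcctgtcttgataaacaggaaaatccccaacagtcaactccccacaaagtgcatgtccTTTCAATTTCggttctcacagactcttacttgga
CXCL11: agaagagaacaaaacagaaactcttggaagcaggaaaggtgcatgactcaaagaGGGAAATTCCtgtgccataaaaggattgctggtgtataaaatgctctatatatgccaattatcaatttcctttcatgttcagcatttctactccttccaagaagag
HERC5 holds 3 ISRE matches, of which the first 2 share bases, and they begin 125, 119 and 74 bases before the start. GBP4 holds 1 that begins 4 bases before the start, and the NF-kappaB match of CXCL11 begins 76 bases before it.

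Of 57 tested interferon effectors 42 were called lower and 5 higher, with a median of -0.76. HERC5, the ligase that attaches ISG15, fell from 28.5 and 33.7 to 2.75 and 2.73 CPM (-3.5 ± 0.14). GBP4, a guanylate-binding protein, fell from 16.8 and 19.2 to 2.004 and 1.47 CPM (-3.38 ± 0.17), whereas its relatives GBP1 and GBP2 rose, GBP2 from 60.02 and 61.98 to 188 and 169.8 CPM (1.55 ± 0.08). DDX60, an antiviral helicase, fell from 372 and 418 to 92.7 and 85.2 CPM (-2.15 ± 0.08). ISG15 changed by -1.36 ± 0.11, IFIT1, IFIT2 and IFIT3 by -1.81 ± 0.09, -2.02 ± 0.08 and -2.04 ± 0.08, BST2 by -2.96 ± 0.11 and OASL by -2.68 ± 0.10. IFI6, another gene of the class, was at 48.01 and 51.1 CPM in shCON and 49.9 and 49.5 CPM in shETS1 with an adjusted p of 0.96. ISRE letters lay in 70.5% of the promoters of the list, 31 of 44, against 3.65% of all promoters. The median log2 fold change was -0.76 in the 31 genes with a match and -0.49 in the 13 without. By calls the order was the other way, with 21 of the 31 lower and 3 higher, and 12 of the 13 lower and 0 higher.

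Sensors and signalling factors of the interferon system had 24 of 45 tested lower and 9 higher (median -0.31). IRF7, the amplifier of the response, changed by -2.66 ± 0.18 and the RNA sensor DDX58 by -1.56 ± 0.09. IFNGR1 rose with 1.27 ± 0.08. TLR2, the receptor of bacterial lipoproteins, rose from 23.6 and 25.6 to 129 and 125 CPM (2.37 ± 0.08). MHC class I genes had 11 of 30 higher and 10 lower, 36.7% and 33.3%, near the 29.7% and 30.9% of all genes. HLA-B and HLA-E changed by 0.28 ± 0.08 and 0.54 ± 0.07, and reads may be shared among these close relatives. PSMB9, an immunoproteasome subunit, fell from 22.6 and 26.9 to 10.9 and 11.3 CPM (-1.15 ± 0.11), and NCR3LG1, the ligand B7-H6 of natural killer cells, fell from 16.6 and 13.7 to 4.18 and 5.04 CPM (-1.71 ± 0.15). Complement genes had 9 of 13 higher and 2 lower, with a median of 0.37. C3, the central component, rose from 51.8 and 41.5 to 95.1 and 91.6 CPM (1.0 ± 0.09).

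Of the 19 tested interleukin-1 genes 13 were called lower and 6 higher. IL1A fell from 178 and 174 to 22.8 and 21.6 CPM (-2.99 ± 0.08) and IL1B from 76.5 and 73.4 to 6.49 and 7.14 CPM (-3.46 ± 0.10), and the antagonist IL1RN changed by -2.89 ± 0.17. The receptors IL1R1 and the decoy IL1R2 rose with 1.87 ± 0.09 and 2.45 ± 0.12. Other members went against these directions within the ligands and the receptors, since the ligand IL18 rose with 0.74 ± 0.07 and the receptors IL1RL1, IL18R1 and IL1RAP fell with -2.38 ± 0.27, -0.62 ± 0.16 and -0.22 ± 0.07. Of 16 chemokines 8 were lower and 5 higher. CXCL11 (chromosome 4, 76954835 to 76962568, minus strand, GRCh37), a ligand of CXCR3, fell from 16.4 and 16.96 to 1.31 and 0.674 CPM (-4.09 ± 0.20), the other CXCR3 ligand tested, CXCL10, by -2.94 ± 0.23, and CCL5 by -3.07 ± 0.27. CXCL14, a chemokine of resting epithelium, rose with 1.78 ± 0.07, and IL8 with 0.96 ± 0.08. NF-kappaB factors and feedback genes had 14 of 30 lower and 8 higher. BIRC3, an inhibitor of cell death, rose from 102 and 113 to 418 and 399.9 CPM (1.93 ± 0.08), SOD2 from 402 and 406 to 1061 and 1043 CPM (1.38 ± 0.08) and NFKBIA, the inhibitor of NF-kappaB, from 279 and 288 to 507 and 474 CPM (0.79 ± 0.08), while TNFAIP3 changed by -0.49 ± 0.09.

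Genes of cell death and of p53 went both ways. Of 40 p53 targets 21 were higher and 15 lower, with a median of 0.28. SESN1, which restrains mTOR, rose from 15 and 19 to 46.4 and 44.8 CPM (1.42 ± 0.10), and TP53INP1 and the RNA-binding protein ZMAT3 changed by 1.68 ± 0.17 and 1.12 ± 0.11. PMAIP1 and BAX, which act in the mitochondrial pathway of death, fell with -1.14 ± 0.08 and -0.65 ± 0.10. Of 31 BCL2 family and death receptor genes 15 were higher and 12 lower. TNFSF10, the death ligand TRAIL, rose from 101 and 109 to 552 and 502 CPM (2.33 ± 0.08), and BCL2L1, an inhibitor of apoptosis, changed by -0.5 ± 0.08.

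Among transcription factor families, the zinc finger genes named ZNF formed the longest list. Many of them encode KRAB repressors that silence transposable elements. Of 404 tested, 211 were called higher and 62 lower, 52.2% and 15.3% beside the 29.7% and 30.9% of all genes, with a median of 0.30. ZNF254 rose from 2.82 and 2.505 to 14.6 and 13.2 CPM (2.38 ± 0.15), ZNF91, which silences retroelements of primates, rose with 1.5 ± 0.08, and ZNF704 fell from 21.3 and 19.3 to 4.23 and 5.11 CPM (-2.11 ± 0.13). Many ZNF genes are recent duplicates that share sequence. The ETS letters lay in 18.3% of ZNF promoters, beside 8.38% for genes tested and 4.44% of all promoters. Among lists that were mostly lower the share varied widely. It was 0% in nucleotide synthesis, histones and interferon effectors and 7.84% in mitosis. In splicing factors it was 23.3% (10 of 43) and in aminoacyl-tRNA synthetases 30.8% (4 of 13). A link between these letters and the direction of change was not tested. HOX genes had 15 of 29 lower and 3 higher (median -0.33), with HOXA11, at 9.74 and 9.06 CPM in shCON and 5.45 and 5.15 CPM in shETS1 (-0.83 ± 0.14), overlapping its antisense gene. FLI1, an ETS factor beside ETS1 on chromosome 11, fell from 25.2 and 24.7 to 2.61 and 2.14 CPM (-3.4 ± 0.14) and overlaps the antisense transcript SENCR.

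The same lists were then set beside short-term loss by siRNA, in which ETS1 changed by -4.13 ± 0.19 (adjusted p 0.00017). There 502 of 14742 genes (3.41%) were called, 167 higher (1.13%) and 335 lower (2.27%). The difference between the effects, called the interaction and coded as the hairpin effect minus that of siRNA, was tested in all 8 libraries and was called in 5974 of 17190 genes (34.8%), 2592 higher (15.1%) and 3382 lower (19.7%). In the siRNA libraries structural RNAs took at most 0.00339% of the counts and mitochondrial genes 0, and how the libraries of each table were made cannot be told apart from the kind of knockdown.

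For most genes of the replication and mitosis lists the 2 knockdowns differed by that test. After siRNA the median log2 fold change was 0.15 for the replication list, with 4 genes called higher and 0 lower, and the interaction was called lower in 42 of 50 genes and higher in 0. For mitosis the siRNA median was 0.06 and the interaction was lower in 57 of 62 genes and higher in 0. After siRNA 21 histone genes were tested, beside 59 after the hairpin, and their median was 0.24. For histones the interaction was lower in 21 of 60 genes and higher in 0. PLK1 changed by 0.58 ± 0.14 (adjusted p 0.093) after siRNA with an interaction of -2.92 ± 0.18 (adjusted p 7.9e-06), and CDT1 by 0.65 ± 0.12 (adjusted p 0.044) with an interaction of -2.08 ± 0.16 (adjusted p 2.4e-05). Interferon effectors had an siRNA median of 0.28 with 0 of them called, and an interaction that was lower in 34 genes and higher in 1. HERC5 changed by 0.53 ± 0.23 (adjusted p 0.27) after siRNA, with an interaction of -4.06 ± 0.33 (adjusted p 3.5e-05).

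Ribosomal proteins had positive medians in both comparisons, 0.43 and 0.17, and keratins had 0.65 and 0.36. Few members were called after siRNA, 0 of 78 ribosomal protein genes, and 3 of 24 keratins higher and 1 lower. The interaction for ribosomal proteins was higher in 19 genes and lower in 6. ZNF genes had a median of -0.04 after siRNA and a median interaction of 0.31 over 411 genes. Some genes fell in both. IL1A changed by -1.07 ± 0.14 (adjusted p 0.014) after siRNA and PTGS2 by -1.39 ± 0.16 (adjusted p 0.011), and both were called in each comparison. IL8 was called in opposite directions, -1.21 ± 0.22 (adjusted p 0.042) after siRNA and 0.96 ± 0.08 after the hairpin, with an interaction of 2.15 ± 0.25 (adjusted p 0.00023). TPX2, a spindle factor, fell in both, by -0.83 ± 0.13 (adjusted p 0.03) after siRNA and -1.29 ± 0.08 after the hairpin.

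**Figure D5:**
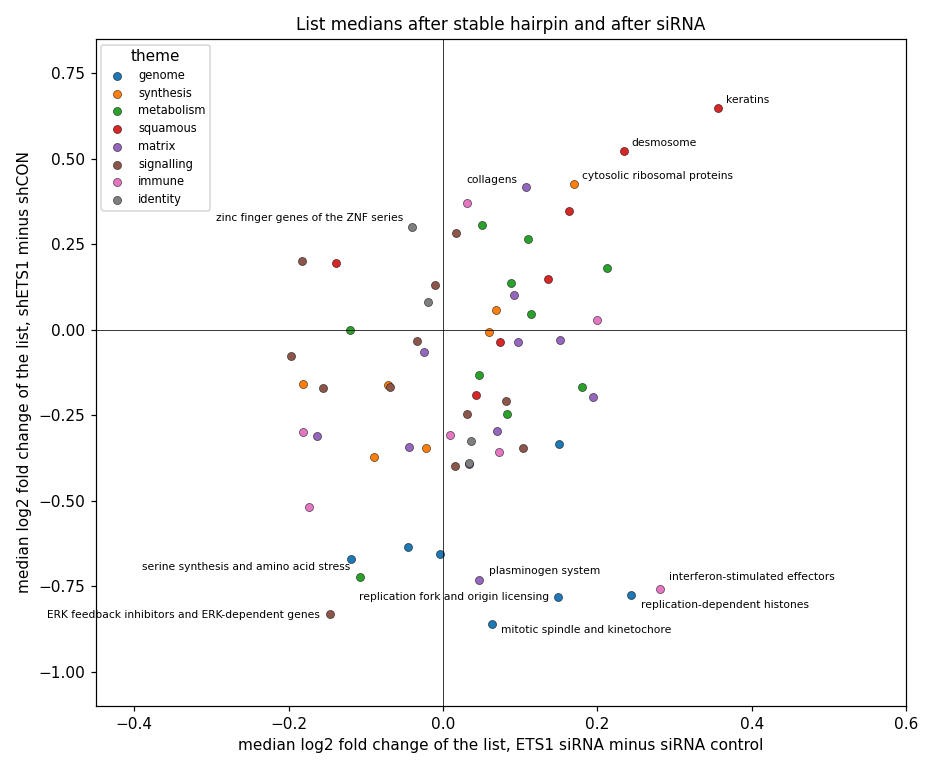
Median log2 fold change of each of 65 lists after the stable hairpin (y axis) and after siRNA (x axis), 1 dot per list, coloured by theme. The replication, mitotic, histone and interferon effector dots lie low at right with medians near -0.8 after the hairpin and above 0 after siRNA, and the keratin and desmosome dots lie above 0 in both. The histone medians cover 59 genes after the hairpin and 21 after siRNA.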

How the data were processed

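The authors extracted total RNA, made TruSeq libraries, sequenced them from 1 end, aligned the reads to GRCh37 by TopHat2 2.1.1 with Bowtie2 2.2.6 and counted them per Ensembl gene with featureCounts 1.5.0 (versions per the submitters' processing notes). The deposited values are raw counts per gene symbol, in a table for each knockdown, and every per-sample column was used. Use of strand and of reads with several matches is not given in the sources used here, so overlapping genes and near-identical copies are uncertain. Overlaps with unnamed transcripts also concern ABCA12, EPHA4, KLK10, LAMA1, BIRC3, CDH11, MRPL12, C3 and ZNF254.

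Total counts of the 4 libraries ranged from 23834078 to 25953213. The counts of replicates were not alike within sampling noise (chi-square over degrees of freedom 6.23 in shCON, 12.8 in shETS1). Groups were compared with edgeR 4.0.16 (R 4.3.3; quasi-likelihood F-test, two-sided) on the 4 libraries, with TMM scaling, filterByExpr, no covariate and Benjamini-Hochberg adjustment over all genes tested, called at 0.1. The SE was the log2 fold change divided by the square root of F. Changes are relative to TMM scaling. The scripts were tested on simulated data. Alternatives were DESeq2 1.42.0, other scalings and filters, length and GC offsets, all 8 libraries in one fit, the replicate number as a block and leaving out each library. The study's methods used DESeq2.

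The comparison, the 69 lists and the tests were chosen with earlier results of these data known, so that lists are described by counts and medians without a test. Genes were named by a rule: ETS1, the 8 largest rises and 8 largest falls that were called, averaged 5 CPM or more, did not overlap between groups and had more than 3 counts in each library of the lower group, and in each list the called member with the largest change under the same conditions. Some genes that the rule names are not reported here. Other list members are given as values. CPM and promoter letters are computed here. Promoters of 300 bases came from RefSeq (GRCh38.p14) and 11319 of the 16481 genes tested matched one. They are in another build than the counts and were matched by symbol. Motifs, spelled where they first appear, were searched on both strands, with overlapping matches counted, and AP-1 was searched as TGACTCA. Gene coordinates and overlaps came from GENCODE v44 lifted to GRCh37, in which 33527 symbols matched a current and 1898 an older name.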

Additional observations from a re-analysis of the deposited data

Results flagged for a closer look

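The difference between the stable hairpin and the siRNA was tested as an interaction, the shRNA effect minus the siRNA effect on the log2 scale, in one edgeR fit of all 8 libraries. It was called in 5974 of 17190 genes (34.8%) at an adjusted p under 0.1. Of the 71 named genes 66 could be tested without a group at or under 3 counts and 64 of these were called, 23 higher and 41 lower. Named genes were chosen for a large hairpin effect, which is part of the interaction. Their share of calls therefore cannot show how often the knockdowns differ. NTS, FABP4, C10orf99, KDR and MT-ND3 were left out. The kind of knockdown cannot be told apart from the differences in preparation between the tables, since the siRNA libraries hold almost no structural or mitochondrial RNA.

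Among the named genes alone, and not among all genes tested, the largest positive interactions (log2) were SCNN1G 5.06, ROBO1 4.62, MMP7 4.46, GHR 4.35, COL3A1 3.24, BIRC3 2.86, DSG1 2.84 and ZNF254 2.78. They were followed by ABCA12 2.58, TNFSF10 2.50, ADM 2.43, TLR2 2.39, DCN 2.33, CLDN1 2.15, CTSF 1.99 and CYP39A1 1.93. The remaining positive values were KRT16 1.78, EPHA4 1.70, MYLK 1.69, ETS1 1.23, C3 1.01, MAF 1.00 and HES2 0.89.

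Among the negative interactions (log2) of the named genes, the largest in size were CXCL11 -4.18, HERC5 -4.06, CDH11 -3.68, FOSL1 -3.24, RPS16 -3.23, FLI1 -3.21, PLK1 -2.92, TFPI2 -2.84 and LPXN -2.83. Next came IL1B -2.78, ADAM19 -2.69, SEMA3A -2.66, PSAT1 -2.66, ETV4 -2.62, CCND2 -2.57, FGF2 -2.35 and KLK10 -2.25. Values between those and the middle of the range were PODXL -2.24, ALDH1A3 -2.21, LCN2 -2.12, MRPL12 -2.12, RRM2 -1.87, LAMA1 -1.81, TIMELESS -1.77, HIST1H4I -1.73 and NT5E -1.69. Smaller ones were HNRNPA2B1 -1.63, AARS -1.54, INHBA -1.53, HSPA5 -1.51, S100A11 -1.47, NCAPD2 -1.47, BRCA2 -1.38, HBEGF -1.32 and PSMC5 -1.27. The remaining negative values were SDHC -1.22, HSP90AA1 -1.03, ITGA2 -1.0, WNT7A -0.83, NCL -0.81 and HOXA11 -0.69. ETS1 is positive because its own fall was larger after siRNA.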

How the results depend on the processing

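With 2 libraries per group, single counts of calls rest on little replication. Of 9988 calls, DESeq2 made 7995, all among them and in the same direction, and leaving out 1 library gave 8282 to 9675 (8282 without shCON replicate 1). Fitting all 8 libraries gave 8401, length and GC offsets 9519, and library size alone 9893. At least 2-fold calls were 2398, between 2236 and 2636 without 1 library, and 1169 when protein-coding genes with at least 1 TPM were kept, a setting that tests fewer genes, 11472. Interaction calls ranged from 4131 to 6302 without 1 library. The labels do not say whether libraries with the same replicate number share anything else. The deviations of replicate 1 in the groups correlated with r = -0.13 over 16481 genes. With 2 libraries per group this value cannot show whether they share a culture or a batch. The replicate block gave 9173 calls, 2382 of at least 2-fold and 4264 interactions, and a pairing with crossed numbers, added after the data were seen, gave 10923. All 1058 pairs of a named gene and an alternative kept their direction and call. Named genes were chosen in these libraries as called, not overlapping and large in change. That outcome was therefore close to fixed by the choice and says nothing about the other calls. The medians of mitochondrial ribosomal proteins, proteasome, fatty acid, NRF2, cornified envelope, mucin, squamous factor, MMP, matricellular, cadherin, EGF, TGF-beta, growth hormone, FGF, MHC class I and II and ion transport genes changed sign in at least 1 setting, so that no direction is given for these lists. Some other list medians kept their sign but moved by more than 1.5 times, and those given here are examples. With length and GC offsets, those of the laminin, semaphorin, actin and AP-1 lists were -0.18, -0.17, -0.14 and -0.19 (beside -0.39, -0.34, -0.30 and -0.40). With library size alone, those of the lysosome, p53, complement and ZNF lists were 0.14, 0.16, 0.24 and 0.18 (beside 0.27, 0.28, 0.37 and 0.30). In the same setting those of the respiratory chain and claudin lists were 0.06 and 0.07 (beside 0.18 and 0.2). The S100 and P450 medians there were 0.02 and 0.01 (beside 0.15 and 0.13). With protein-coding genes of at least 1 TPM, those of the WNT, HOX and AP-1 lists were -0.19, -0.16 and -0.1 (beside -0.35, -0.33 and -0.40). The aldehyde dehydrogenase and NF-kappaB medians there were 0.09 and -0.12 (beside 0.31 and -0.3). Without shETS1 replicate 1 the HOX median was -0.21. Without shETS1 replicate 2 the angiogenic and YAP medians were -0.53 and -0.39 (beside -0.17 for each). The chemokine median was -0.82 in the fit of all 8 libraries (beside -0.36). With no filter on low counts the ADAM and integrin medians were -0.01 and -0.27 (beside -0.31 and -0.06). The causes were not tested.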
